A study of Mus musculus with 72 samples.

Results

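The comparison described here asks whether the liver's response to a Low Protein diet differs between 2 inbred strains of male mouse, C57BL/6J and DBA/2J. It was read by RNA sequencing as an interaction: the Low Protein minus Control change in DBA/2J minus the same change in C57BL/6J, on the log2 scale. It was chosen by the study's own labels, without any measured value. It uses 24 of the series' 72 libraries, in 4 groups of 6: C57BL/6J Control, C57BL/6J Low Protein, DBA/2J Control and DBA/2J Low Protein, all labelled sex M. The rest of the series holds the Medium Protein diet and mice labelled F. Per the labels, diets began at 10 weeks of age and ran for 13 weeks, so animals were 23 weeks old, and all groups were housed at about 22 °C and fasted overnight for 16 h before the liver was taken. No group carries an engineered allele or a drug in the labels, and no source used here gives the protein content of the diets. The labels do not say that each library is a separate animal, so p-values measure the spread between these libraries.

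When an essential amino acid runs short, uncharged transfer RNA activates the kinase GCN2, and translation of the transcription factor ATF4 rises. ATF4 binds C/EBP-ATF elements and turns on genes for amino acid synthesis and import, and for the hepatokine FGF21. The liver is also where most amino acids are broken down and where the urea cycle turns the nitrogen into urea, and the enzymes of both routes are known to follow dietary protein. In a fasted liver, the receptor PPARA drives fatty acid oxidation genes, while SREBP2 drives cholesterol synthesis genes when sterols are low.

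The total count per library, in units of 1e6, ran from 28.5 to 38.3 with a median of 32.5 over the 24 libraries. In 3 of them, ribosomal-like genes took over 5% of the counts: 12.7% in C57BL/6J Control replicate 1, 35.0% in C57BL/6J Control replicate 6 and 10.1% in DBA/2J Control replicate 4. The other 21 had at most 2.78%, so the share was high only among Control libraries. Counts below are therefore also given without these libraries. Xist was at most 2.29 CPM (counts per 1e6 library counts, after TMM scaling) in all 24, and the Y-linked Ddx3y was at least 60.3 CPM, as the label M requires. The hepatocyte transcript Alb ran from 34900 to 71000 CPM. In bulk liver, fewer cells of a type and less RNA per cell cannot be told apart.

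Of 19362 genes tested, 558 (2.88%) had an interaction that passed the edgeR quasi-likelihood test at a Benjamini-Hochberg adjusted p under 0.05, and 3215 had an unadjusted p under 0.05. In 382 genes (1.97% of those tested) the interaction was above 0, and they are called higher here: the change in DBA/2J lay above that in C57BL/6J. In 176 (0.909%) it was below 0, and they are called lower. The interaction was at least 2-fold in 139 of the 558. The scaling matters for the direction: with library totals in place of TMM, 995 genes were called, 10.8% of them higher against 68.5% with TMM, and the median interaction of all genes moved to -0.17 from -0.0039. Without the 3 ribosomal-rich libraries, and others of the series over the same limit, 443 genes were called, of which 378 were among the 558. Leaving out 1 library gave between 323 and 624 genes, the lowest counts being 323 without C57BL/6J Low Protein replicate 5, 345 without DBA/2J Control replicate 6, 355 without DBA/2J Low Protein replicate 1, 355 without DBA/2J Low Protein replicate 4 and 367 without C57BL/6J Control replicate 5.

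Most of the called differences came with a larger change in C57BL/6J. On its own, the Low Protein diet changed 1894 genes (9.78%) in C57BL/6J at the same threshold in edgeR, with 4.08% of all genes tested rising and 5.7% falling. With library totals it called 5652 genes, 94.4% of them rising against 41.7% with TMM. The diet changed 18 genes (0.093%) in DBA/2J, with 0.0465% rising and 0.0465% falling, and 1 in a fit of the 24 libraries alone. At an unadjusted p under 0.05 in edgeR it changed 4470 of all 19362 genes in C57BL/6J and 1476 in DBA/2J. With library totals 19 passed in DBA/2J, 73.7% of them rising against 50% with TMM. Among the 558 genes, 494 changed more in C57BL/6J than in DBA/2J in size. At an unadjusted p under 0.05, 388 differed from Control in C57BL/6J only, 19 in DBA/2J only, 6 in both with the same sign and 145 in both with opposite signs. For the 382 higher genes, the median change was -0.49 in C57BL/6J and 0.13 in DBA/2J. For the 176 lower genes it was 0.44 and -0.14. The 6 Low Protein libraries lay wholly outside the range of the 6 Control libraries in 307 of the 558 genes (55%) in C57BL/6J, against 4.74% of all genes tested. In DBA/2J this held for 17 (3.05%), against 0.615% of all. These splits describe the called genes and are no further test, since the call itself rests on both changes. The plot of the change in each strain shows the higher genes mostly left of 0 and the lower genes mostly right of 0, both nearer to 0 on the DBA/2J axis.

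**Figure D1:**
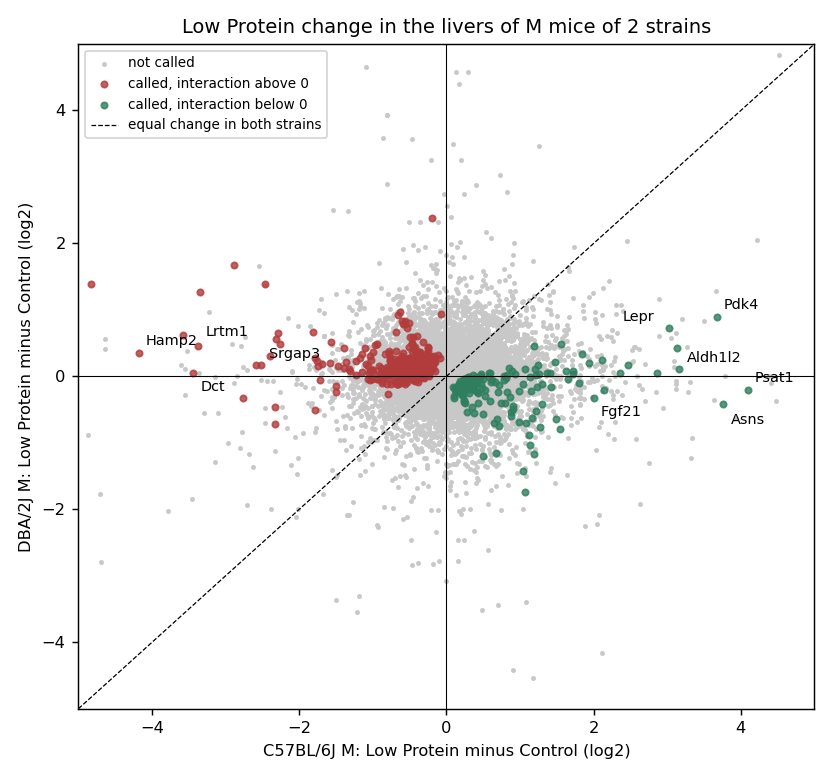
Change from Control to Low Protein (log2) in C57BL/6J males (x axis) against DBA/2J males (y axis), 1 point per gene tested, with 24 genes, 3 of them called, lying outside the axes. Coloured points are the 382 genes called higher and the 176 called lower in the interaction, and they spread along the C57BL/6J axis rather than along the dashed line of equal change.

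Genes of the ATF4 program lay mostly below 0. Of 33 members tested, 6 were called lower (Asns, Psat1, Aldh1l2, Fgf21, Slc7a5 and Nars) and 1 higher (Cth), against 0.909% and 1.97% of all genes. The median interaction of the list was -0.41, from a median change of 0.39 in C57BL/6J and -0.08 in DBA/2J. Without the ribosomal-rich libraries the edgeR counts were 6 lower and 0 higher, while DESeq2 called 5 lower and 1 higher and limma-voom 4 and 1, with 8 lower and 2 higher at an unadjusted p under 0.05 in edgeR on all libraries. The transcript of Atf4 itself, whose control is largely translational, had an interaction of -0.03 (adjusted p = 0.97, edgeR). Other well-known members did not pass: the interaction was -1.01 for Atf3, -1.13 for Chac1, -0.11 for Trib3 and 0.03 for Ddit3.

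The promoter windows of Asns and Fgf21 are shown because both genes were called and each holds 1 match to the core of the C/EBP-ATF element, TGATGNAA, searched on both strands. Each window is RefSeq sequence of the GRCm38.p6 assembly, from 250 bases before to 50 after the start, both on the minus strand of the genome. Asns is at chr6:7693160-7693459, with the match beginning 23 bases before the start. Fgf21 is at chr7:45615441-45615740, with the match on the opposite strand beginning 139 bases before the start. Capitals mark the match.
Asns: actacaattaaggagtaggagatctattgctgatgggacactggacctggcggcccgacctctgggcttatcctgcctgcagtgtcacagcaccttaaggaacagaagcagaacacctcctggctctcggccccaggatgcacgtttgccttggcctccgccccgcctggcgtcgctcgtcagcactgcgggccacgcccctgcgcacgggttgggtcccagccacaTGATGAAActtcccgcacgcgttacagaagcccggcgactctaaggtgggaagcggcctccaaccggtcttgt
Fgf21: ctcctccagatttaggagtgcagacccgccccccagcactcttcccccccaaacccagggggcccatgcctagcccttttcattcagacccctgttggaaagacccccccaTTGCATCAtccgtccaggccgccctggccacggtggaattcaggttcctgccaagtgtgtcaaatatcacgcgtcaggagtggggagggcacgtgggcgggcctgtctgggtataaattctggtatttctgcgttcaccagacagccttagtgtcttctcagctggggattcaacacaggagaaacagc
The element's core was in 3.97% of the 32851 windows of the table. It was in at least 1 window of 3.06% of the tested genes that have one, and of 11 of the 27 ATF4 list members that have one (40.7%), many of which are known targets by way of this element. Of the 3 called members with a window, Asns and Fgf21 held it and Psat1 did not in any of its windows, each of 300 bases. The table holds the reference sequence, and DBA/2J alleles were not analysed here.

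Asns makes asparagine and is the textbook target of amino acid shortage. Its level was 0.321, 0.912 and 2.81 CPM (lowest, median and highest library) in C57BL/6J Control and 9.65, 17.3 and 25.4 CPM in C57BL/6J Low Protein. In DBA/2J it was 0.095, 0.580 and 1.09 CPM in Control and 0.284, 0.396 and 0.979 CPM in Low Protein. All 6 C57BL/6J Low Protein libraries lay above every library of the other groups in this comparison, and the DBA/2J groups overlapped. The change was 3.76 ± 0.60 (log2, SE) in C57BL/6J and -0.42 ± 0.74 in DBA/2J, an interaction of -4.18 ± 0.94 (adjusted p = 0.00551, edgeR).

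Psat1, an enzyme of serine synthesis, showed the same layout. It was 0.056, 0.327 and 0.450 CPM in C57BL/6J Control and 1.21, 5.40 and 8.10 CPM in C57BL/6J Low Protein, against 0.041, 0.528 and 0.823 CPM and 0.066, 0.512 and 0.841 CPM in DBA/2J Control and Low Protein. The C57BL/6J groups did not overlap and the DBA/2J groups covered the same range. The interaction was -4.29 ± 0.82 (adjusted p = 0.000914, edgeR). Aldh1l2, the mitochondrial enzyme that oxidises 10-formyl-tetrahydrofolate, was at low levels throughout, up to 0.487 CPM in C57BL/6J Control and from 0.989 to 3.64 CPM in C57BL/6J Low Protein. DBA/2J libraries reached at most 0.592 CPM in Control and 0.462 CPM in Low Protein. Its interaction was -3.06 ± 0.67 (adjusted p = 0.0042, edgeR).

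Fgf21, a fasting and protein-restriction hormone of the liver, differed between strains already on Control. It was 3.48, 4.20 and 6.25 CPM in C57BL/6J Control and 6.17, 12.1 and 39.2 CPM in C57BL/6J Low Protein. In DBA/2J it was 15.0, 39.2 and 71.5 CPM in Control and 13.2, 33.4 and 47.2 CPM in Low Protein. The C57BL/6J groups overlapped narrowly, and the DBA/2J Control libraries all lay above the C57BL/6J Control libraries. The change was 2.00 ± 0.42 in C57BL/6J and -0.33 ± 0.38 in DBA/2J, an interaction of -2.33 ± 0.56 (adjusted p = 0.0105, edgeR), which missed the threshold with limma-voom (adjusted p = 0.0559).

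Slc7a5, a transporter of large neutral amino acids, had an interaction of -1.06 ± 0.29 (adjusted p = 0.0314, edgeR), and Nars, the asparaginyl-tRNA synthetase, of -0.42 ± 0.09 (adjusted p = 0.0035). The Slc7a5 call was lost when any of 7 of the 24 libraries was left out, with interactions between -1.22 and -0.91 over all 24. Of 20 aminoacyl-tRNA synthetase genes, Nars and Rars were lower and 0 were higher in edgeR, with 7 lower and 0 higher at an unadjusted p under 0.05. DESeq2 called 3 lower, limma-voom 1 and edgeR with library totals 6, and the Rars call was lost on leaving out any of 15 libraries.

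**Figure D2:**
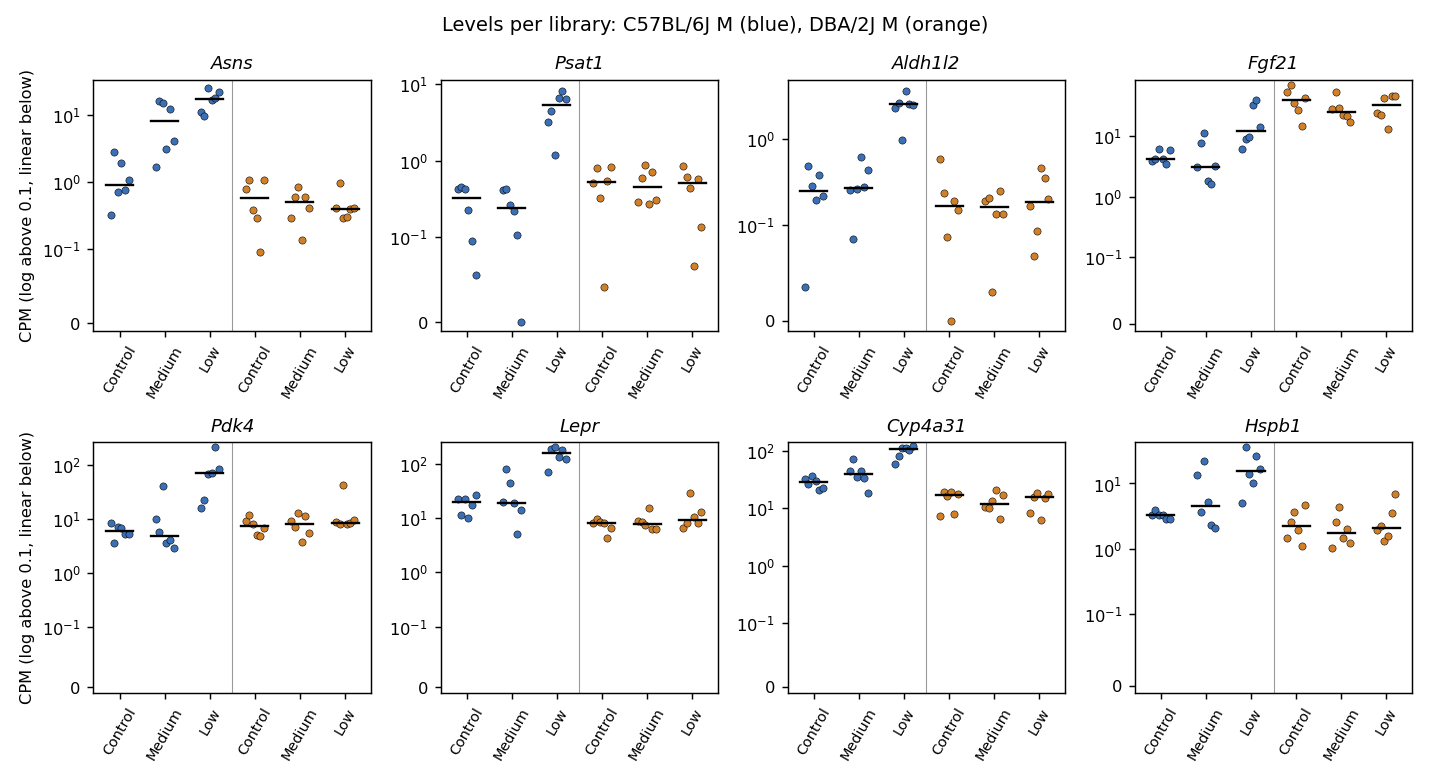
Level per library (CPM, log axis above 0.1 and linear below) of 8 genes on Control, Medium Protein and Low Protein in C57BL/6J males (blue) and DBA/2J males (orange), with 6 libraries per group and bars at the medians. In C57BL/6J the Low Protein libraries of Asns, Psat1, Aldh1l2, Pdk4, Lepr, Cyp4a31 and Hspb1 lie above all Control libraries, and in DBA/2J the diets overlap in all 8 genes.

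Fatty acid oxidation and PPARA-linked genes also lay mostly below 0, with 7 of 47 above it. Of these 47, 5 were lower (Ehhadh, Cyp4a31, Acot2, Pdk4 and Fgf21, which the ATF4 list also holds) and 1 higher (Echs1), the same numbers as without the ribosomal-rich libraries. The median interaction was -0.24, from 0.23 in C57BL/6J and -0.02 in DBA/2J. DESeq2 called 9 lower, and both the fit on the 24 libraries alone and library totals called 11. On their own, 13 members rose and 1 fell in C57BL/6J, and 0 passed in DBA/2J, where 7 had an unadjusted p under 0.05, 4 of them upwards. Of all 19362 genes tested, 1476 had such a p in DBA/2J.

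Pdk4, the kinase that shuts pyruvate out of oxidation in fasting, was 3.60, 6.09 and 8.57 CPM in C57BL/6J Control and 15.9, 70.0 and 211 CPM in Low Protein. In DBA/2J it was 4.94, 7.44 and 11.7 CPM in Control and 8.07, 8.62 and 42.5 CPM in Low Protein. Only the C57BL/6J groups were apart, and 1 DBA/2J Low Protein library, replicate 3, stood far above its group. The interaction was -2.78 ± 0.69 (adjusted p = 0.0147, edgeR), and without C57BL/6J Low Protein replicate 5 it was -2.18 (adjusted p = 0.0727). Lepr, the leptin receptor gene, was 9.92, 19.8 and 26.9 CPM in C57BL/6J Control and 70.5, 155 and 203 CPM in Low Protein, against 4.37, 8.14 and 9.53 CPM and 6.66, 9.33 and 28.4 CPM in DBA/2J. Its C57BL/6J groups were apart and its DBA/2J groups overlapped. The interaction was -2.30 ± 0.61 (adjusted p = 0.0227, edgeR).

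Ehhadh, a peroxisomal beta-oxidation enzyme, had a higher median level in DBA/2J Control than in C57BL/6J Control, as did Fgf21. It was 482, 580 and 823 CPM in C57BL/6J Control and 849, 1092 and 1928 CPM in Low Protein. In DBA/2J it was 618, 1446 and 1937 CPM in Control and 494, 893 and 1161 CPM in Low Protein. The C57BL/6J groups did not overlap and the DBA/2J groups did. The change was 0.99 ± 0.23 in C57BL/6J and -0.69 ± 0.23 in DBA/2J (adjusted p = 0.343 for DBA/2J alone), an interaction of -1.68 ± 0.32 (adjusted p = 0.000914, edgeR). Cyp4a31, a fatty acid omega-hydroxylase, rose from 21.2 to 36.3 CPM in C57BL/6J Control to 58.2 to 121 CPM in Low Protein, and DBA/2J libraries stayed between 6.14 and 19.5 CPM on both diets. Its interaction was -1.90 ± 0.42 (adjusted p = 0.00515, edgeR). Its value is uncertain, because the counting can split reads among closely similar Cyp4a genes.

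Amino acid breakdown genes showed the opposite pattern, with 23 of 63 members called higher and 0 lower in edgeR. At an unadjusted p under 0.05, 43 were higher and 0 lower, DESeq2 called 31 higher and limma-voom 24, and neither called any lower. The median interaction was 0.45, from -0.47 in C57BL/6J and -0.02 in DBA/2J. In C57BL/6J alone 44 members fell and 1 rose, while in DBA/2J 0 passed in edgeR, with 2 up and 3 down at an unadjusted p under 0.05. Of all 19362 genes tested, 1476 had such a p in DBA/2J. Without the ribosomal-rich libraries 19 members were higher, and with library totals 12. Added over all 63 genes, the levels were 15030, 15410 and 17010 CPM in C57BL/6J Control and 9675, 11240 and 12260 CPM in Low Protein. In DBA/2J they were 12170, 13930 and 14360 CPM in Control and 12730, 13280 and 14140 CPM in Low Protein. The C57BL/6J groups did not overlap in this sum, and the DBA/2J Low Protein range lay inside that of Control.

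The called members cover several routes. In the breakdown of histidine the interaction was 1.58 for Hal, 0.64 for Uroc1, 0.78 for Amdhd1 and 0.91 for Ftcd. In that of phenylalanine, tyrosine and tryptophan it was 0.78 for Qdpr, which recycles the cofactor of phenylalanine hydroxylase, 0.78 for Hpd, 0.71 for Kynu and 0.87 for Haao. For branched-chain amino acids it was 0.58 for Ivd, 0.40 for Mccc2, 0.36 for Acad8 and 0.44 for Pccb. Gldc, of the glycine cleavage system, had 1.38, Gls2, the liver glutaminase, 0.98, and Gpt, alanine aminotransferase, 0.86. Each of these 15 was called in edgeR with a negative change in C57BL/6J. Sds, serine dehydratase, had 1.46 and missed the threshold in edgeR (adjusted p = 0.0595), but passed it with DESeq2 (0.0442) and in edgeR on the 24 libraries alone (0.018) or with a stricter filter (0.0465). Csad, which makes hypotaurine, had -0.77 (adjusted p = 0.365).

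Qdpr was 100, 108 and 118 CPM in C57BL/6J Control and 69.9, 71.7 and 81.4 CPM in Low Protein, and 58.0, 64.8 and 78.6 CPM and 65.2, 76.0 and 88.7 CPM in DBA/2J Control and Low Protein. The C57BL/6J ranges were apart, with Low Protein the lower, and the DBA/2J ranges overlapped. Its change was -0.58 ± 0.09 in C57BL/6J and 0.19 ± 0.09 in DBA/2J, an interaction of 0.78 ± 0.12 (adjusted p = 5.23e-05, edgeR). Agxt2, a mitochondrial aminotransferase, was 110 to 125 CPM in C57BL/6J Control and 50.6 to 76.6 CPM in Low Protein, with DBA/2J between 113 and 168 CPM on both diets. Its interaction was 0.85 ± 0.15 (adjusted p = 0.000513, edgeR).

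Of 30 genes for serine, glycine, folate and methionine, 10 were higher and 2 lower. The lower ones were Psat1 and Aldh1l2, and the higher ones were Bhmt, Bhmt2, Dmgdh, Gnmt, Aldh1l1, Aldh7a1, Shmt1, Mthfd1, Cbs and Cth. With library totals the counts were 5 and 5, so the balance of this list rests on the scaling, while without the ribosomal-rich libraries they were 7 and 2. Dmgdh, which demethylates dimethylglycine, was 477, 566 and 659 CPM in C57BL/6J Control and 209, 270 and 312 CPM in Low Protein. In DBA/2J it was 644, 682 and 776 CPM in Control and 566, 673 and 952 CPM in Low Protein. Its C57BL/6J groups were far apart and its DBA/2J groups overlapped throughout. The interaction was 1.11 ± 0.17 (adjusted p = 1.97e-05, edgeR), from -1.06 ± 0.12 and 0.05 ± 0.12.

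Gnmt, which uses S-adenosylmethionine to methylate glycine, was 648, 701 and 808 CPM in C57BL/6J Control and 252, 303 and 357 CPM in Low Protein. DBA/2J was at 260, 310 and 398 CPM on Control and 276, 318 and 379 CPM on Low Protein, so both DBA/2J groups lay in or near the C57BL/6J Low Protein range. The interaction was 1.25 ± 0.24 (adjusted p = 0.000914, edgeR). Aldh1l1, the cytosolic counterpart of Aldh1l2, went from 856, 891 and 956 CPM to 383, 440 and 498 CPM in C57BL/6J, and was 472, 526 and 705 CPM and 524, 600 and 852 CPM in DBA/2J Control and Low Protein. The 2 paralogs thus had interactions of opposite sign, 1.26 ± 0.23 for Aldh1l1 (adjusted p = 0.000532, edgeR) and -3.06 for Aldh1l2.

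In the urea cycle 3 of 9 genes were called higher and 0 lower in edgeR, with 7 higher and 0 lower at an unadjusted p under 0.05. DESeq2 called 5 and limma-voom 3 higher, and the fit on the 24 libraries alone called 7. The interaction was above 0 in all 9, with a median of 0.75, from -0.51 in C57BL/6J and 0.22 in DBA/2J. Slc25a15, the ornithine carrier, was 238, 249 and 348 CPM in C57BL/6J Control and 163, 193 and 228 CPM in Low Protein, and 218, 253 and 285 CPM and 280, 323 and 415 CPM in DBA/2J. Its C57BL/6J ranges were apart, and in DBA/2J the Low Protein libraries were mostly the higher ones with a small overlap. Its interaction was 0.85 ± 0.16 (adjusted p = 0.000917, edgeR), from -0.44 ± 0.11 and 0.41 ± 0.11. Asl and Ass1, which make arginine from citrulline, had interactions of 1.34 ± 0.34 (adjusted p = 0.0184) and 1.12 ± 0.30 (adjusted p = 0.0249). Asl missed the threshold without C57BL/6J Control replicate 3 (1.19, adjusted p = 0.0511). Ass1 did so without that library (1.03, adjusted p = 0.0536), without C57BL/6J Low Protein replicate 5 (1.08, adjusted p = 0.0511), without DBA/2J Low Protein replicate 2 (1.00, adjusted p = 0.0544) and without the ribosomal-rich libraries (1.11, adjusted p = 0.0548). Cps1, the entry enzyme, had 0.81 (adjusted p = 0.0612 in edgeR, 0.0331 with DESeq2 and 0.0423 in edgeR on the 24 libraries alone), and Otc had 0.46 (adjusted p = 0.0817).

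**Figure D3:**
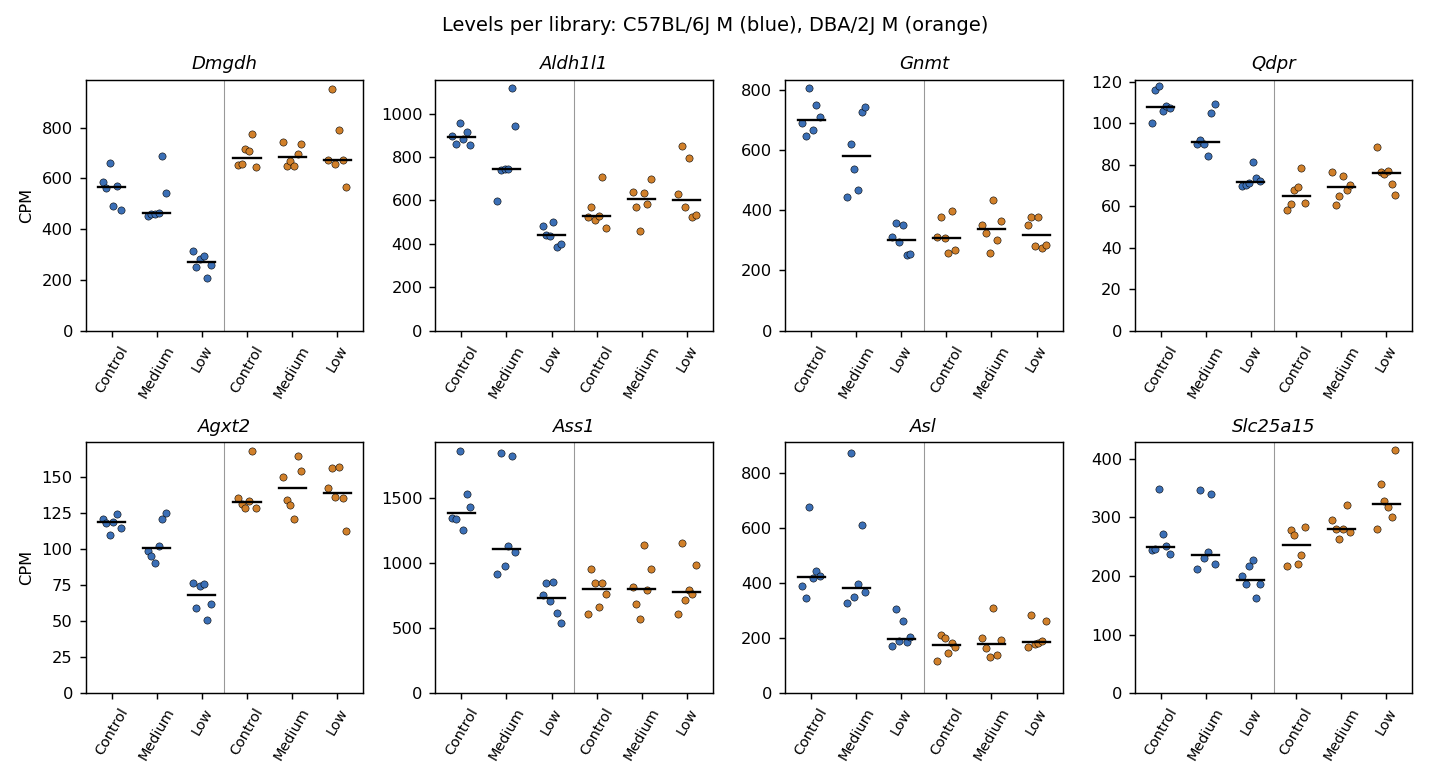
Level per library (CPM, linear axis from 0) of 8 amino acid and one-carbon genes on Control, Medium Protein and Low Protein in C57BL/6J males (blue) and DBA/2J males (orange), with 6 libraries per group and bars at the medians. In C57BL/6J the Low Protein libraries of all 8 genes lie below all Control libraries, and in DBA/2J the diets overlap.

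Cholesterol synthesis and uptake differed from the lists above in that the median change was larger in DBA/2J than in C57BL/6J. With TMM scaling, all 25 genes tested had a negative change in C57BL/6J and a positive change in DBA/2J. The median interaction was 0.91, the largest of the 27 lists, from -0.29 in C57BL/6J and 0.60 in DBA/2J. Of the 25, 5 were called higher (Tm7sf2, Dhcr7, Ebp, Srebf2 and Mvk) and 0 lower in edgeR, with 18 higher and 0 lower at an unadjusted p under 0.05 and 6 higher in both DESeq2 and limma-voom. In DBA/2J alone 0 passed in edgeR, although 19 had an unadjusted p under 0.05, all upwards, and in C57BL/6J 3 fell. Of all 19362 genes tested, 1476 had such a p in DBA/2J, in either direction. The count was 5 without the ribosomal-rich libraries and 4 with library totals. With library totals the median change was -0.04 in C57BL/6J and 0.68 in DBA/2J, so the fall in C57BL/6J rests on the scaling. The 25 genes were read in the same libraries, so they are not 25 independent measurements.

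Srebf2 encodes SREBP2, the regulator named above. Its level was 32.3, 35.7 and 41.9 CPM in C57BL/6J Control and 24.1, 27.9 and 34.9 CPM in Low Protein, and 12.6, 18.7 and 23.0 CPM and 23.6, 24.7 and 32.7 CPM in DBA/2J Control and Low Protein. The DBA/2J groups did not overlap, with Low Protein the higher, and the C57BL/6J groups did. The interaction was 0.84 ± 0.19 (adjusted p = 0.007, edgeR). Dhcr7, which makes cholesterol from its last precursor, was 17.6, 23.1 and 26.8 CPM and 12.0, 15.3 and 19.2 CPM in C57BL/6J Control and Low Protein, and 11.9, 14.9 and 19.7 CPM and 21.2, 22.9 and 32.3 CPM in DBA/2J. Here too the DBA/2J groups were apart while the C57BL/6J groups overlapped. Its interaction was 1.25 ± 0.24 (adjusted p = 0.00114, edgeR), from -0.53 ± 0.17 and 0.72 ± 0.17.

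Tm7sf2, a sterol reductase, changed mainly in C57BL/6J, by -0.99 ± 0.18 against 0.36 ± 0.18 in DBA/2J (interaction 1.35 ± 0.25, adjusted p = 0.000801, edgeR). Mvd had the largest interaction of the list, 1.77, and missed the threshold in edgeR (adjusted p = 0.0643), but passed it with DESeq2 (0.0478), limma-voom (0.024) and edgeR on the 24 libraries alone (0.0313). Among 31 fatty acid and triglyceride synthesis genes 3 were higher (Acly, Acss2 and Agpat2) and 0 lower in edgeR, with 8 higher and 1 lower at an unadjusted p under 0.05 and 4 higher in DESeq2. The Agpat2 call was lost on leaving out any of 14 libraries. Acly, which makes acetyl-CoA for both pathways, was 72.5, 83.6 and 96.0 CPM in DBA/2J Control and 99.6, 105 and 133 CPM in DBA/2J Low Protein, groups that did not overlap, with an interaction of 0.69 ± 0.15 (adjusted p = 0.00435). Scd1 had 2.21 and missed the threshold in edgeR (adjusted p = 0.0548), but passed it with DESeq2 (0.0447) and in edgeR on the 24 libraries alone (0.0322) or with a stricter filter (0.0439).

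**Figure D4:**
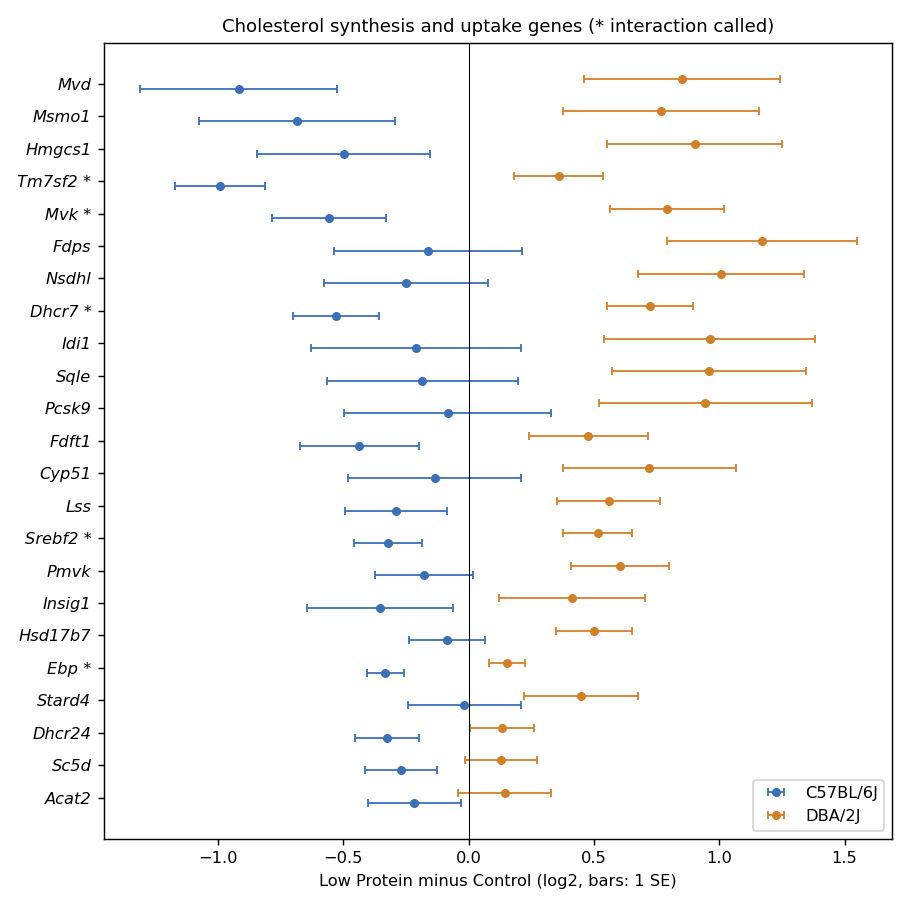
Change from Control to Low Protein (log2, with 1 SE from the edgeR fit) of 23 cholesterol synthesis and uptake genes, in C57BL/6J males (blue) and DBA/2J males (orange), with 6 libraries per group. All 23 blue points lie below 0 and all 23 orange points above it, and a star marks the 5 genes called in the interaction.

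Respiratory chain, xenobiotic and interferon genes had median interactions of 0.27, 0.36 and 0.35. Of 75 respiratory chain genes 11 were higher, among them Sdha (0.44 ± 0.10, adjusted p = 0.00815) and Cox6a1 (0.71 ± 0.15, adjusted p = 0.00315), and 0 lower in edgeR, with 50 higher and 0 lower at an unadjusted p under 0.05. DESeq2 called 14 and limma-voom 10, but with library totals 1 was left. Of 46 xenobiotic genes 6 were higher, including Cyp2c29 (1.48 ± 0.38, adjusted p = 0.0173) and Cyp3a25 (0.89 ± 0.21, adjusted p = 0.00809), and Ugt1a9, a conjugating enzyme, was lower. Ugt1a9 went from 40.5, 56.2 and 66.9 CPM to 91.8, 176 and 250 CPM in C57BL/6J and stayed between 429 and 692 CPM in DBA/2J on both diets, with no overlap between the C57BL/6J groups. Its interaction was -1.69 ± 0.36 (adjusted p = 0.00309, edgeR). Of 46 interferon response genes 4 were higher (Oasl1, Stat2, Mx2 and Irgm1) and Ifi27 was lower, and without the ribosomal-rich libraries 2 were higher and 0 lower, while with library totals 1 was higher and 1 lower. The Irgm1 call was lost on leaving out any of 9 libraries, and the Stat2 call for any of 5. Stat2 was also lost with library totals, with no filter, on the 24 libraries alone, and with the letter of the labels' sample code as a term in the fit. The labels do not say what that code stands for. The 4 groups share no number of the code, so whatever the number stands for cannot be told apart from strain and diet. Oasl1 fell from 8.14 to 14.6 CPM in C57BL/6J Control to 2.60 to 5.63 CPM in Low Protein, while DBA/2J ran from 13.1 to 23.0 CPM, with an interaction of 1.62 ± 0.28 (adjusted p = 0.000262).

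Heat shock genes had a median interaction of -0.44, from 0.43 in C57BL/6J and 0.06 in DBA/2J, and 21 of the 23 members lay below 0, yet 2 were called lower (Hspb1 and Hspd1) and 0 higher in edgeR, with 12 lower and 0 higher at an unadjusted p under 0.05. Without the ribosomal-rich libraries 0 were called in edgeR, with limma-voom 0 and with DESeq2 3, while with library totals in edgeR 7 were called lower. Hspb1, a small heat shock protein, had -2.29 ± 0.65 (adjusted p = 0.0361), a call lost on leaving out any of 10 libraries, and the Hspd1 call was lost for any of 17. In the edgeR fit of all libraries with TMM, 0 of 30 NRF2 genes and 0 of 34 acute phase genes were called: 6 and 2 had an unadjusted p under 0.05, DESeq2 called 1 and 0, and limma-voom 0 in both. Other edgeR fits called 2 NRF2 genes lower with library totals and 1 lower on the 24 libraries alone. Igf1, the growth hormone-driven growth factor, had an interaction of 0.21 (adjusted p = 0.514), with 473 to 631 CPM and 354 to 539 CPM in C57BL/6J Control and Low Protein and 493 to 654 CPM and 500 to 655 CPM in DBA/2J. Cyp7a1, which sets the pace of the classic bile acid pathway, had 0.77 (adjusted p = 0.594).

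**Figure D5:**
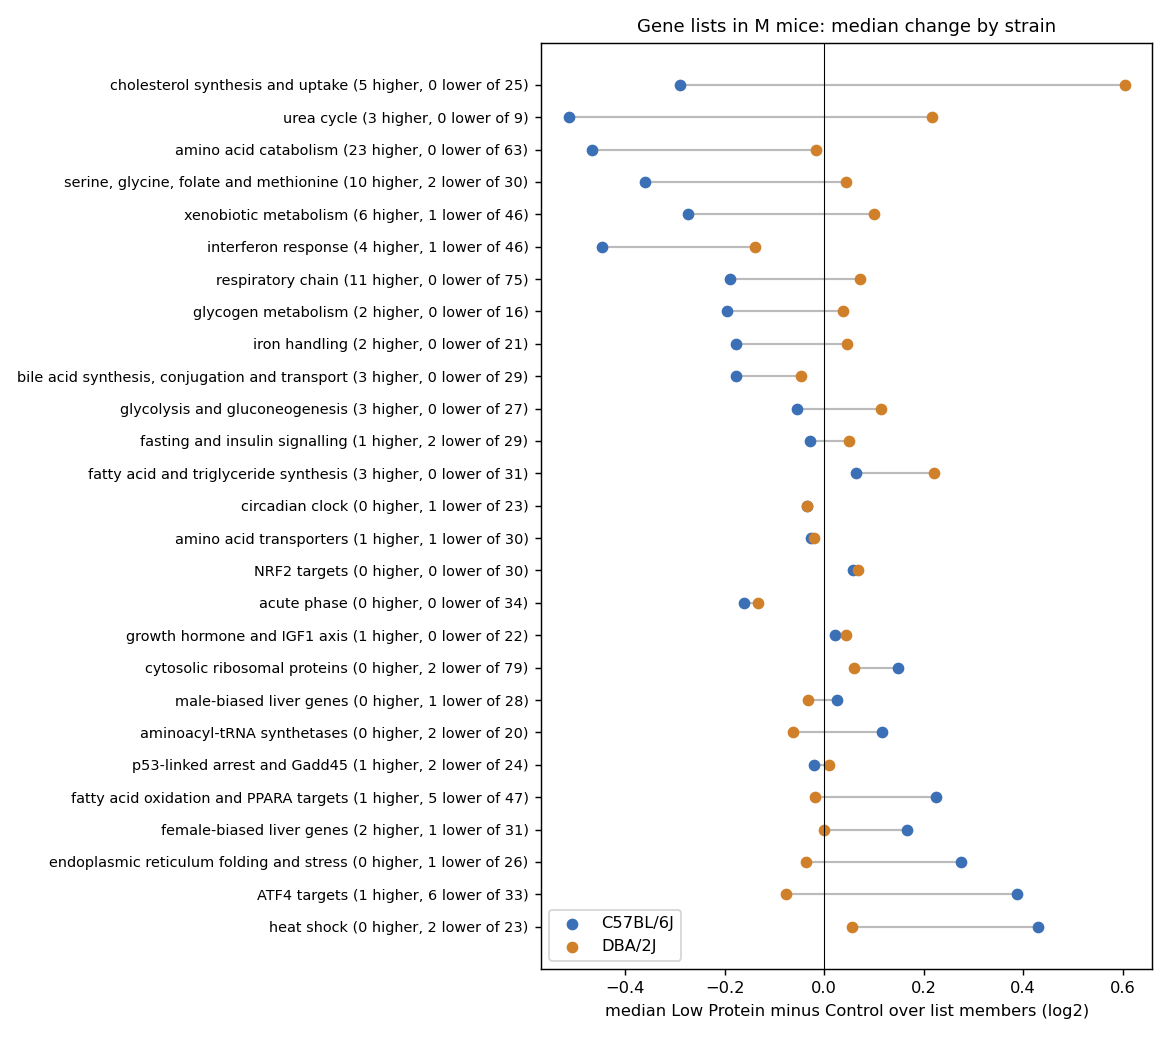
Median change from Control to Low Protein (log2) over the tested members of each of 27 gene lists in C57BL/6J males (blue) and DBA/2J males (orange), ordered by the list's median interaction, with the numbers of members called higher and lower in the interaction beside each name. Cholesterol genes are at the top with medians of -0.29 and 0.60, and heat shock and ATF4 genes at the bottom, where the C57BL/6J medians are 0.43 and 0.39.

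Some genes changed in opposite directions in the 2 strains, with an unadjusted p under 0.05 in each. There were 188 such genes (0.971% of all tested), and 145 of them were among the 558. As 18 genes in all passed in DBA/2J alone in edgeR, most of these DBA/2J changes did not pass on their own. Small changes also rest on the scaling. With library totals the median change of all genes was 0.26 in C57BL/6J and 0.086 in DBA/2J, against 0.0098 and 0.0086 with TMM. Tmem63a, an ion channel of the OSCA family, had the smallest interaction p of the named genes. It was 11.8, 12.8 and 13.8 CPM in C57BL/6J Control and 7.39, 9.38 and 10.9 CPM in Low Protein, and 8.22, 9.45 and 12.5 CPM and 11.0, 12.6 and 15.8 CPM in DBA/2J. Low Protein libraries were the lower ones in C57BL/6J, without overlap, and mostly the higher ones in DBA/2J. The interaction was 0.84 ± 0.12 (adjusted p = 1.82e-05, edgeR), from -0.46 ± 0.09 and 0.38 ± 0.09. In the other direction, Gtf2b, the general transcription factor TFIIB, changed by 0.71 ± 0.11 in C57BL/6J and -0.24 ± 0.11 in DBA/2J (interaction -0.94 ± 0.16, adjusted p = 0.000195). Eif3a, a subunit of a translation initiation factor, changed by 0.36 ± 0.06 and -0.17 ± 0.06 (interaction -0.53 ± 0.09, adjusted p = 0.000171). Bod1l, which protects replication forks, had groups that did not overlap in either strain: 37.1 to 41.6 CPM against 42.0 to 50.5 CPM in C57BL/6J, and 40.6 to 43.5 CPM against 31.7 to 38.7 CPM in DBA/2J, Control first. Its interaction was -0.44 ± 0.08 (adjusted p = 0.000315, edgeR), while its change in DBA/2J alone did not pass (adjusted p = 0.167, edgeR).

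Large named differences above 0 included 4 genes that reached at most 12.2 CPM in any C57BL/6J Control library, namely Hamp2, Lrtm1, Srgap3 and Dct. Hamp2, a hepcidin paralog, was 1.11, 4.24 and 6.16 CPM in C57BL/6J Control and 0, 0.220 and 0.451 CPM in Low Protein, while DBA/2J ran from 105 to 168 CPM on Control and from 106 to 335 CPM on Low Protein. The C57BL/6J groups were apart, and both lay far below DBA/2J. Its interaction was 4.54 ± 0.74 (adjusted p = 0.00013, edgeR, and 0.125 with limma-voom), and reads may be divided between it and its near-identical copy. Lrtm1, a leucine-rich repeat membrane protein, went from 5.18, 8.77 and 12.2 CPM to 0.212, 0.790 and 1.82 CPM in C57BL/6J and was 1.97, 3.44 and 5.61 CPM and 1.68, 4.77 and 9.14 CPM in DBA/2J (interaction 3.84 ± 0.58, adjusted p = 1.97e-05). Srgap3, a GTPase-activating protein, had 2.68 ± 0.44 (adjusted p = 0.000138) and Dct, known for its part in melanin synthesis, 3.49 ± 0.60 (adjusted p = 0.000253), both with C57BL/6J groups that did not overlap.

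Calls of 2 genes of these sets rested on 1 library. Mup12, a major urinary protein of a family with near-identical copies, was 2.63, 6.77 and 1998 CPM in DBA/2J Control, and the highest value is replicate 4, 1 of the ribosomal-rich libraries. Its interaction was -5.22 with all libraries (adjusted p = 0.0035, edgeR) and 0.55 without that one (adjusted p = 0.732). Gvin1, an interferon-inducible GTPase, had 0 counts in all 6 DBA/2J Control libraries and 140 and 27 counts in 2 of the 6 DBA/2J Low Protein libraries, so its call (adjusted p = 0.0113) has no usable fold. Without DBA/2J Low Protein replicate 1 it was lost (adjusted p = 0.17).

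Markers of other cell types were compared in the same 4 groups. Of 9 red blood cell markers tested, Hbb-bs was lower (-1.41 ± 0.38, adjusted p = 0.0284, edgeR) and 0 were higher, with 5 lower and 0 higher at an unadjusted p under 0.05. Without the ribosomal-rich libraries 0 were called in edgeR. The list's median interaction was -0.97, from 1.16 in C57BL/6J and 0.01 in DBA/2J. Its summed level ran from 242 to 377 CPM and from 283 to 585 CPM in C57BL/6J Control and Low Protein, and from 316 to 407 CPM and 289 to 443 CPM in DBA/2J. The part of blood in the lower genes was not tested. Of 16 T and NK cell markers Prf1 was lower (-2.34 ± 0.53, adjusted p = 0.00649), at 0.278 to 0.999 CPM in C57BL/6J Control and 1.37 to 5.94 CPM in Low Protein, and the summed level of that list was between 3.88 and 9.42 CPM in all 4 groups. The median change of the T and NK list was -0.22 in C57BL/6J and -0.36 in DBA/2J. In C57BL/6J 6 of its 16 markers had a positive change, so the rise of Prf1 was not that of the list. Of the macrophage (20), endothelial (18), stellate cell and matrix (18), cholangiocyte (8) and hepatocyte (8) markers 0 were called in edgeR, with 1, 0, 3, 0 and 2 at an unadjusted p under 0.05. DESeq2 called 1 hepatocyte marker and 0 in the other 4 lists, and limma-voom called 0 in all 5.

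The same contrast with Medium Protein in place of Low Protein shares the Control libraries, so it is given side by side only. It called 16 genes (0.0826%, made up of 0.0207% higher and 0.062% lower) in edgeR, and 0 without the ribosomal-rich libraries, where 1691 had an unadjusted p under 0.05. For Asns the Medium interaction was -3.13 (adjusted p = 0.208), with C57BL/6J Medium Protein at 1.68, 8.18 and 16.0 CPM and DBA/2J Medium Protein at 0.136, 0.498 and 0.851 CPM. The C57BL/6J Medium libraries of Asns thus reached from the Control range into the Low Protein range. For Psat1 it was 0.29, for Pdk4 -0.77, for Lepr -0.51 and for Dmgdh 0.12, and none of these 4 passed (adjusted p between 0.835 and 0.968). The amino acid catabolism list had a median Medium interaction of 0.08 against 0.45 for Low Protein, and the cholesterol list 0.51 against 0.91.

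Mice labelled F share no animals with this comparison. Their own Low Protein by strain interaction called 18 genes (0.093%, made up of 0.031% higher and 0.062% lower), and 2 of them were among the 558. The F interaction had the sign of the M interaction in 343 of the 558 genes (61.5%), against 48.8% of all genes tested, and had that sign with an unadjusted p under 0.05 in 81 (14.5%), against 5.44%. For the 382 higher genes its median was 0.08, and for the 176 lower genes -0.02. The M minus F difference itself was tested across all genes and passed for 78 (0.403%) in edgeR, 52 of them among the 558, and for 6 with library totals. Of the genes shown above, Gtf2b (-0.91 ± 0.23, adjusted p = 0.0481), Bod1l (-0.54 ± 0.11, adjusted p = 0.0139), Nars (-0.50 ± 0.13, adjusted p = 0.0492), Cox6a1 (0.84 ± 0.21, adjusted p = 0.0492) and Amdhd1 (1.45 ± 0.29, adjusted p = 0.0139) differed between M and F mice. For Asns, Psat1, Dmgdh and Dhcr7 the difference was not shown: it was -2.41, -3.96, 0.76 and 0.95 (adjusted p = 0.602, 0.0879, 0.109 and 0.168).

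The authors' deposited table gives log2 fold changes per strain but no interaction. In the authors' deposited table, Asns has 4.01 in C57BL/6J (adjusted p = 2.53e-07) and -0.13 in DBA/2J (adjusted p = 0.997), and Pdk4 has 3.22 and 0.62. Dmgdh has -1.05 and 0.04 in the authors' deposited table, close to the -1.06 and 0.05 of the fit used here. Calls can differ: Dhcr7 in DBA/2J has 0.73 in the authors' deposited table and passes there (adjusted p = 0.0474), but did not pass here. Hamp2 in C57BL/6J has -4.38 in the authors' deposited table and does not pass there (adjusted p = 0.0728).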

How the data were processed

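Liver RNA was sequenced as stranded, polyA-selected libraries spread over 2 lanes and merged, per the labels' protocols. The authors deposited RSEM expected counts per gene, with edgeR, limma and R 3.4.3 also in the submitters' processing notes. No source used here names the aligner or the build. The deposited table holds 51912 genes, 279 of them without a symbol, and 11.6% of its values were not whole, so expected counts were rounded. The authors' deposited table of log2 fold changes with adjusted p-values covers 17575 genes.

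All 72 libraries were fitted with 1 mean for each of 12 groups in edgeR 4.0.16 (R 4.3.3, limma 3.58.1) by TMM scaling, filterByExpr and the two-sided quasi-likelihood test, with Benjamini-Hochberg adjustment over 19362 genes and a threshold of 0.05. The common biological coefficient of variation was 0.207. The SE is the log2 difference over the square root of F. Alternatives used DESeq2 1.42.0, limma-voom, other scalings and filters, fewer libraries and each library left out in turn. On simulated counts with known changes, the interaction test recovered 49.3% of 67 genes changed 1.5-fold. It recovered 64.2% of 67 at 2-fold and 90.9% of 66 at 3-fold. Of its 142 calls among 18938 genes, 6 (4.23%) were false. These shares hold for those counts only. The genes given a change all had a mean of at least 1 CPM in the measured libraries, so recovery of lower genes was not tested. Recovery in the measured libraries was not tested either.

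The members and the 27 pathway and 12 marker lists were chosen with earlier results of these data known. Genes named by rule were the 12 highest and 12 lowest called interactions whose mean log2 CPM was 0 or more, up to 4 called and 2 other members of each list, up to 8 genes with opposite changes, and Asns, Fgf21, Pdk4, Lepr, Igf1, Cyp7a1, Hamp2 and Psat1. Other list members were named after their values were seen. Counts of list members without the ribosomal-rich libraries and under other tools were added after seeing the data. Some genes are not reported here. Replicate numbers follow accession order and pair nothing.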

Additional observations from a re-analysis of the deposited data

Results flagged for a closer look

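The strain interaction of the Low Protein diet is itself a difference between 2 strains under 1 contrast, and passed for 558 genes in edgeR. The M minus F difference of that interaction passed for 78 genes in edgeR. Among the genes named by rule it was -0.81 for Atf6, -0.54 for Bod1l, 0.66 for Carhsp1, 0.84 for Cox6a1, -0.91 for Gtf2b, -0.50 for Nars, 0.86 for Pcx, -0.66 for Rora and 1.34 for Steap3, on the log2 scale.

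Single libraries stood far from the other 5 of their group on the log2 CPM scale in 11 of 108 groups checked, over 27 genes, by Dixon's test, which flags about 1 group in 20 by chance. In DBA/2J Control these were replicate 5 for Dct (18.0 CPM) and Pls1 (3.33 CPM), and replicate 4 for Mup12 (1998 CPM). In DBA/2J Low Protein they were replicate 2 for Asns (0.979 CPM) and replicate 3 for Pdk4 (42.5 CPM). In C57BL/6J Control they were replicate 1 for Gvin1 (113 CPM) and replicate 4 for H2-Q1 (2.09 CPM, the lowest). In C57BL/6J Low Protein they were replicate 5 for Egr1 (49.3 CPM), replicate 6 for Hamp2 (0 CPM, the lowest) and replicate 1 for Ntrk2 (1.47 CPM) and Pls1 (0.799 CPM).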

How the results depend on the processing

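Of 87 named genes that were called, 29 kept the call under every alternative that held them and every left-out library, and 86 kept their sign. The filter at a mean CPM of at least 1 held 84 of the 87. A gene without an adjusted p in DESeq2 was counted as keeping its call. The count of 558 became 995 with library totals, 264 with no filter (42851 genes tested) and 90 against a fold of 1.2, and ran from 323 to 624 with 1 library left out. With library totals the C57BL/6J count rose from 1894 to 5652 (94.4% higher), the Medium Protein count was 8 and the M minus F count 6. The DBA/2J count of 18 became 1 in the fit of the 24 libraries alone, with 0 genes shared, and 9 without the ribosomal-rich libraries, where the Medium Protein count was 0 in edgeR, with 1691 genes at an unadjusted p under 0.05. The causes were not tested.

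Some signs turned. With library totals the interaction was -0.0036 for Cryab, -0.076 for Slc25a13 and -0.082 for Wars. Without the ribosomal-rich libraries it was 0.78 for Mup12. With 1 library left out it ran from -5.52 to 0.55 for Mup12, from -0.11 to 0.037 for Cycs, from -1.04 to 0.37 for Saa3 and from -0.00052 to 0.15 for Wars. No paired analysis was possible because the labels give no replicate numbers. Depth limits low genes most: Aldh1l2 had 46 counts in all 6 C57BL/6J Control libraries and 36 in those of DBA/2J Control.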
